A study of Rattus norvegicus with 14 samples.

Results

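The genes of the cytosolic ribosomal proteins were followed through tenotomy immobilization of the soleus, a calf muscle of the rat made mostly of slow fibres. A gene was taken as a member if its probe set carried a single symbol formed of Rpl or Rps and a number, or Rplp0, Rplp1, Rplp2 or Rpsa, without the Rps6k kinases. The rule gave 48 of 14217 genes, 33 of the large and 15 of the small ribosomal subunit, and all 48 were among the 11064 genes tested. Each gene was read from its brightest probe set. A further 36 probe sets list a ribosomal protein together with another symbol and were not members, so Rplp1, Rplp2 and Rps27, among others, are not described.

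Muscles of male Sprague Dawley rats were measured on 14 Affymetrix arrays, 1 per muscle. The 4 controls were left soleus muscles without tenotomy, from rats 61 and 62 and from 2 other rats. The 6 short-term muscles were right soleus muscles tenotomized, that is with the tendon severed, for 1 week (rats 12 and 13), 2 weeks (rats 25 and 27), 3 weeks (rat 32) or 4 weeks (rat 42), and the 4 long-term muscles were right soleus muscles tenotomized for 6 weeks (rats 61 and 62), 16 weeks (1 rat) or 22 weeks (1 rat). Side and tenotomy therefore cannot be told apart, nor can cohort and tenotomy for short-term muscle.

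Ribosomal proteins assemble with ribosomal RNA in the nucleolus into the small subunit, which decodes messenger RNA, and the large subunit, which forms peptide bonds. Their messengers are among the most abundant of most cells, and in mammals many start with a run of pyrimidines that places their translation under control of the kinase mTOR. Ribosome number is a known determinant of protein synthesis in muscle. A few members have paralogs of restricted expression: Rpl3, which reaches into the catalytic centre of the large subunit, is replaced in part of the ribosomes of skeletal and heart muscle by Rpl3l, a protein made almost only in striated muscle.

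The promoters of this pair are shown because their signals moved in opposite directions, with that of Rplp0, a stalk protein that did not pass the test in short-term muscle against control, for comparison. Each is the stretch from 150 bases before to 30 bases after the gene's start in RefSeq (build GRCr8), read along the gene's strand. That of Rpl3 is chr7:113507961-113508140 (minus strand), that of Rpl3l is chr10:14258296-14258475 (plus strand) and that of Rplp0 is chr12:46718361-46718540 (minus strand). Capitals mark a pyrimidine run near the start, searched on the gene's strand as a C followed by 4 or more bases that are each C or T beginning within 10 bases of the start, and the motif CANNTG, the same on both strands, to which basic helix-loop-helix factors such as those of muscle can bind.
Rpl3: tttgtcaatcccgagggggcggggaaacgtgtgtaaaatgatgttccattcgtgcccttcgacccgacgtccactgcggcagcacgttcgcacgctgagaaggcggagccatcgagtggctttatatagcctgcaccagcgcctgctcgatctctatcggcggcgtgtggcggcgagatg
Rpl3l: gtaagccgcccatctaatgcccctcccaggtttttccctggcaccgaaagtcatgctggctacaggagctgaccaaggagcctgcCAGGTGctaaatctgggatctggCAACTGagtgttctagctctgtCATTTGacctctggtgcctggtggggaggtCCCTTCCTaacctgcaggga
Rplp0: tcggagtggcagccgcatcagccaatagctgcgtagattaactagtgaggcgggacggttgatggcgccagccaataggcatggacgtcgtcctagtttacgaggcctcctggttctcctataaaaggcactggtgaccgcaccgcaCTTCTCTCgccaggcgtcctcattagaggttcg
The window of Rpl3 holds neither of these letter patterns, that of Rpl3l holds 3 matches to CANNTG before the start and a pyrimidine run from base 11 to base 18 after it, and that of Rplp0 holds a pyrimidine run across the start. Of the 48 members 43 had a promoter in RefSeq, and 24 of these (55.81%) held such a run, against 27.34% of 33469 rat promoters. CANNTG lay in 25 of the 43 promoters of 300 bases (58.14%), against 72.1% of all. A match describes letters and not a bound site.

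Signals are given on a scale on which each array was shifted to a common median of all probe sets. On it the median gene was lower by 0.34 (log2) in short-term muscle than in controls (a change of -0.34), 0.02 higher in long-term muscle than in controls and 0.37 higher in long-term than in short-term muscle. Each change of a gene is therefore given relative to the median gene, while its p-value refers to the scaled change before that subtraction. Calls were repeated under 5 other scalings, and a member is said to be called under all 6 where its direction and its side of the threshold, an adjusted p of 0.05, were the same in each. A p-value here measures the spread between arrays of separate muscles, and 14 arrays limit its precision. Whole muscle was measured, so fewer cells of a type and less RNA per cell cannot be told apart.

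Rpl3 rose in short-term muscle and was back near its control level in long-term muscle. Its signal was 2096, 2400, 2487 and 2552 in the controls, and 3282 and 3791 at 1 week, 3294 and 5174 at 2 weeks, 4183 at 3 weeks and 4273 at 4 weeks. It was 2366 and 2694 at 6 weeks, 2118 at 16 weeks and 2684 at 22 weeks. All 6 short-term arrays lay above all controls and all long-term arrays, and the long-term arrays overlapped the controls. The change from control to short-term muscle was 1.07 (log2, relative to the median gene; SE 0.14; limma, adjusted p = 0.00052), and that from short-term to long-term muscle was -1.06 (SE 0.14; limma, adjusted p = 0.00081). Both were called under all 6 scalings. Long-term muscle differed from control by 0.02 (SE 0.15; limma, adjusted p = 1). With the time points fitted apart, the rise was 0.90 at 1 week (SE 0.18; limma, adjusted p = 0.032) and 1.18 at 2 weeks (SE 0.18; limma, adjusted p = 0.0044), each called under all 6 scalings.

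Rpl3l moved the other way. Its signal was 4305, 4671, 4876 and 5323 in the controls, and 2146 and 2937 at 1 week, 3425 and 2379 at 2 weeks, 2797 at 3 weeks and 2045 at 4 weeks. It was 4389 and 4050 at 6 weeks, 4996 at 16 weeks and 6154 at 22 weeks. All 6 short-term arrays lay below all controls and all long-term arrays, and again long-term arrays and controls overlapped. Rpl3l fell by 0.55 in short-term muscle (log2, relative to the median gene; SE 0.16; limma, adjusted p = 0.00029) and rose from short-term to long-term muscle by 0.53 (SE 0.16; limma, adjusted p = 0.00025), under all 6 scalings in both. Long-term muscle differed from control by -0.01 (SE 0.17; limma, adjusted p = 1). At 1 week the change was -0.60 (SE 0.18; limma, adjusted p = 0.0031; all 6 scalings), and at 2 weeks, where the muscle of rat 25 kept the highest short-term signal, it was -0.36 (SE 0.18; limma, adjusted p = 0.0063) but called under 2 of 6 scalings.

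**Figure D1:**
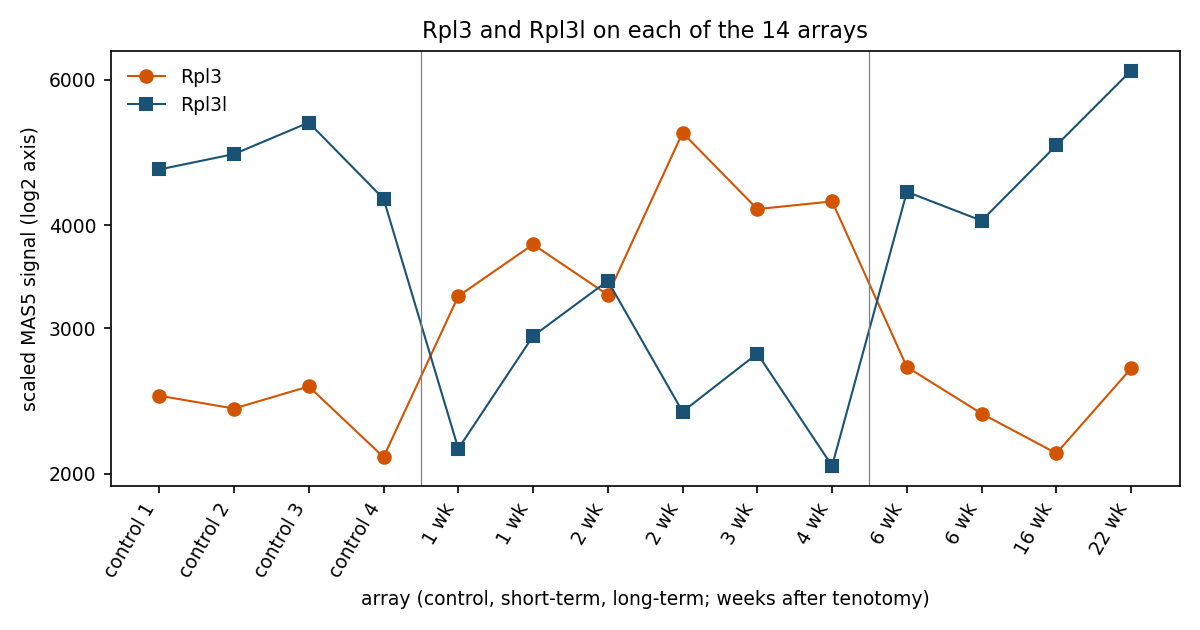
Scaled MAS5 signal (log2 axis) of Rpl3 (circles) and Rpl3l (squares) on each of the 14 arrays, in the order control, short-term and long-term with the week after tenotomy; lines only join the points of a gene, and the heights of different probe sets are not comparable. All 6 short-term arrays are above the controls for Rpl3 (3282 to 5174 against 2096 to 2552) and below them for Rpl3l (2045 to 3425 against 4305 to 5323).

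The difference between both signals of an array does not depend on a shift of that array. Its level rests on different probes and means little, but its change can be compared. The log2 difference of Rpl3 minus Rpl3l was -1.01 ± 0.07 (SD, n = 4) in controls, 0.61 ± 0.44 (n = 6) in short-term muscle and -0.98 ± 0.28 (n = 4) in long-term muscle. It ran from -0.06 to 1.12 over the short-term arrays, all above the highest control (-0.91) and the highest long-term array (-0.70). Short-term muscle thus exceeded control by 1.62 (SE 0.18), a 3.08-fold change of the ratio, and long-term muscle differed from short-term muscle by -1.59 (SE 0.23). In each of these comparisons the exact 2-sided permutation test gave p = 0.0048, the smallest it can give with 4 and 6 arrays, and 0.029 after adjustment over 12 tests of paralog pairs. Long-term muscle differed from control by 0.03 (SE 0.14; exact permutation p = 0.86, adjusted 0.93). This mean joins arrays on both sides of the controls, which ran from -1.06 to -0.91. The long-term values were -0.70 and -0.78 at 6 weeks, -1.24 at 16 weeks and -1.20 at 22 weeks. In rat 61 the 6-week muscle differed from the rat's own control muscle by 0.36 (log2, scaled) for Rpl3 and 0.03 for Rpl3l, and in rat 62 by -0.07 and -0.21. The median member differed by 0.18 in rat 61 and by -0.25 in rat 62. Rpl3 minus Rpl3l was -0.70 at 6 weeks against -1.04 in the control muscle of rat 61, and -0.78 against -0.91 in rat 62. A dimmer second probe set of Rpl3, of a kind whose probes can match several transcripts, changed by 1.04 in short-term muscle (SE 0.43), which did not pass the test (limma over 15107 probe sets, adjusted p = 0.18).

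The other pairs of a member and its paralog gave no call within arrays. Rpl26, which lies at the exit of the peptide tunnel, minus Rpl26l1, its paralog, differed by -0.59 between long-term and short-term muscle (SE 0.18; exact permutation p = 0.014, adjusted p = 0.057) and by 0.44 between short-term muscle and control (SE 0.25; exact permutation p = 0.10, adjusted p = 0.25). Rpl7, a protein of the large subunit, minus Rpl7l1, its paralog with a role in ribosome assembly, differed by 0.01 between short-term muscle and control (SE 0.11; exact permutation p = 0.92, adjusted p = 0.93). A second probe set of Rpl7l1 was nearly as bright (mean log2 signal 8.24 against 8.65). In short-term muscle it changed by 0.31 relative to the median gene (SE 0.18), against -0.03 for the one used (SE 0.15, limma over 15107 probe sets). The pair was not tested with it. Rpl39 minus Rpl39l1, its paralog, differed by -0.07 between short-term muscle and control (SE 0.64, exact permutation p = 0.93). Between long-term muscle and control the difference was -0.96 (SE 0.40, exact permutation p = 0.057, adjusted p = 0.17). Between long-term and short-term muscle it was -0.89 (SE 0.72, exact permutation p = 0.32, adjusted p = 0.56). Both genes of this pair were dim. Rpl39l1 was at the floor of 9.69 on 2 arrays and Rpl39 on 0, where signals of Rpl39 ran from 29.2 to 144.

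Among the members with strong signals, Rpl3 and Rpl3l departed furthest from the others. A mean log2 signal of 9.5 or more, a value chosen after the signals were seen, was reached by 39 members. Set against the median of the others on the same array, Rpl3 lay 1.00 ± 0.23 (SD, n = 6) above its control mean in short-term muscle and Rpl3l lay at -0.62 ± 0.23 (n = 6). The means of the other 37 lay between -0.24 for Rpl4 and 0.27 for Rps28, a protein of the small subunit. Over all 14 arrays the SD of a gene around the others was 0.54 for Rpl3 and 0.35 for Rpl3l, and ran from 0.04 to 0.19 with a median of 0.09 for the other 37. The 188 other genes with mean signals in the range of these 37, set around their own median, had a median SD of 0.18, and 54.3% of them had an SD no higher than the highest of the 37. Deposited signals of the 37 ran from 2870 to 10724, where the highest signal of any probe set was 12542, and whether signals so near the top of the scale are compressed was not tested. Rpl3 and Rpl3l had the lowest mean log2 signals of the 39, 11.54 and 11.85, below the 11.88 of the dimmest of the 37. They thus lay outside the signal range of the 188 genes. On the scale itself the members' median moved between arrays, and without Rpl3 and Rpl3l it lay between -0.24 and 0.20 (log2, from the control mean) on the control arrays, between -0.48 and -0.09 on the short-term arrays and between -0.23 and 0.43 on the long-term arrays.

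**Figure D2:**
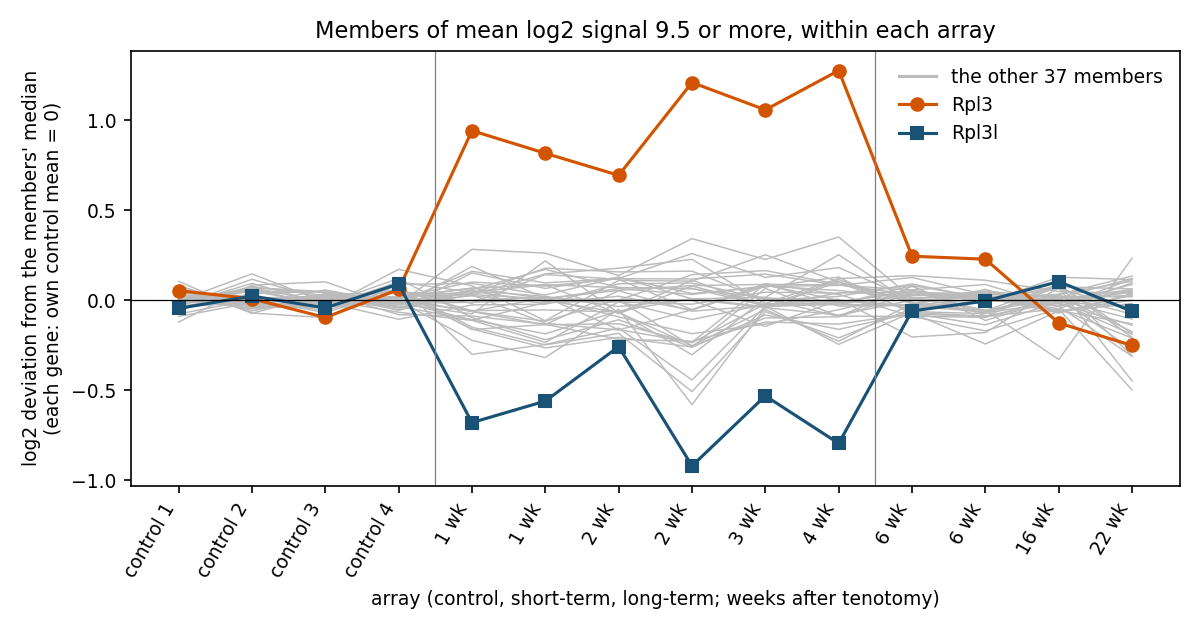
Log2 deviation of each of the 39 brighter members from the median of the others on the same array, with the gene's own control mean at 0, for the 14 arrays by group and week. On the short-term arrays Rpl3 lies at 0.69 to 1.28 and Rpl3l at -0.92 to -0.26, while the grey lines run from -0.58 (Rpl12) to 0.35 (Rps28), so that some of them reach the range of Rpl3l.

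Across all members, short-term muscle differed from control by a median of 0.09 relative to the median gene, with a range from -0.55 to 1.25. The median was 0.09 for the large and 0.12 for the small subunit. Within 0.25 of the median gene lay 38 of 48 members (79.2%), against 31.5% of all genes tested, which are not matched for signal. The quartiles of the change were -0.02 and 0.18 for the members and -0.37 and 0.50 for all genes. For the 188 other genes in the signal range of the 37 brighter members, set around their own median, they were -0.21 and 0.23. By limma 3 members passed the threshold as higher, where 12.3% of all genes did, and 14 as lower, where 39.6% did. This split rests on the scaling, which turns the calls of all genes as well. On the deposited scale 2 members were higher and 12 lower (10.0% and 29.3% of all genes), with a common 75th percentile 4 and 1 (18.6% and 25.4%) and with a common median of the tested genes 4 and 1 (17.9% and 26.6%). With a common trimmed mean they were 5 and 1 (23.0% and 18.2%), and after quantile normalization 11 and 2 (18.3% and 22.3%). Under all 6 scalings Rpl3 and Rps4y2 were higher (background 9.87%) and Rpl3l was lower (background 16.7%). The count of lower members was 6, 8 or 4 when control replicate 1, 2 or 3 was left out, 9 when short-term replicate 1 was and 8 when short-term replicate 6 was. The arrays did not overlap for 1 member that was higher, Rpl3 (background 6.92%), and for 7 that were lower (background 29.2%).

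**Figure D3:**
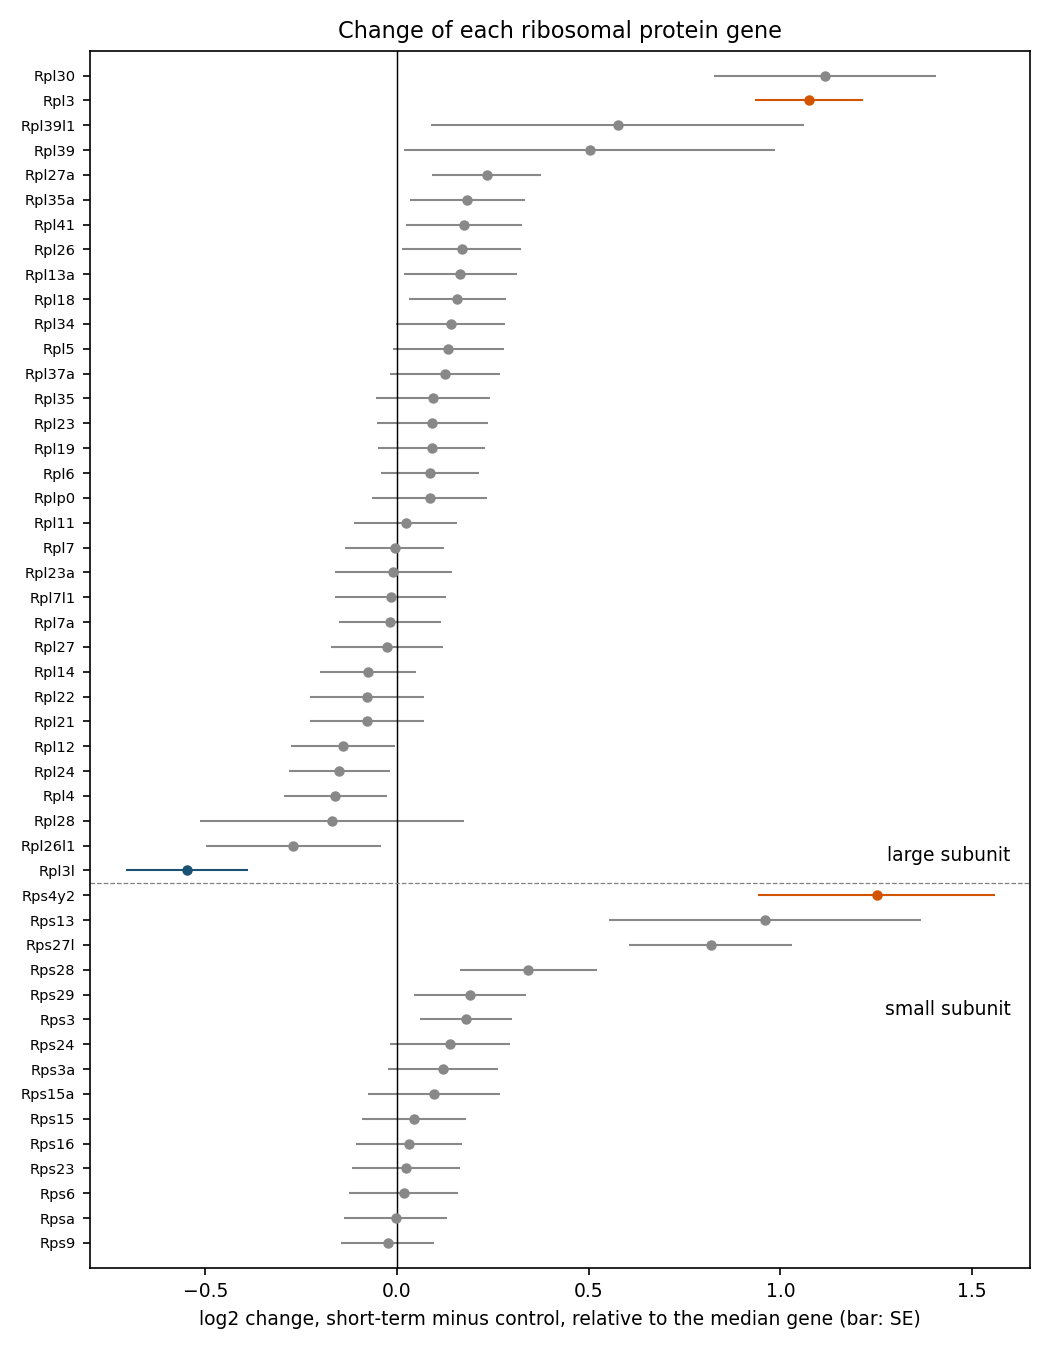
Log2 change of each of the 48 members from control to short-term muscle relative to the median gene (points) with its standard error (bars), large subunit above and small subunit below the dashed line; orange and blue mark members called higher and lower under all 6 scalings. Most members lie within 0.25 of the median gene, Rpl3, Rps4y2 and Rpl30 lie above 1 and Rpl3l lies at -0.55.

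Of the members other than Rpl3l that were lower without overlap, the 4 that fell furthest relative to the median gene were Rpl4, Rpl24, Rpl12 and Rpl21, all of the large subunit. Rpl4 has an arm that lines the peptide tunnel. Its signal was 4849 to 6054 in controls, and 3148 to 4455 in short-term muscle, so that the groups did not overlap. The change relative to the median gene was -0.16 (SE 0.13; limma, adjusted p = 0.0054). Rpl24, which bridges to the small subunit, changed by -0.15 (limma, adjusted p = 0.0053), Rpl12, at the base of the stalk, by -0.14 (limma, adjusted p = 0.0074) and Rpl21 by -0.08 (limma, adjusted p = 0.025). Each of the 4 was called lower under 2 of 6 scalings.

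Apart from Rpl3 and Rpl3l, the members with strong signals named for known roles differed little from the median gene in short-term muscle. Dim members named so, such as Rps27l, are described further on. Rps6, the substrate of S6 kinase downstream of mTOR, had signals of 5436 to 6761 in controls, 3969 to 5579 in short-term muscle and 5580 to 8652 in long-term muscle, so that the long-term arrays lay just above the short-term arrays and overlapped the controls. Its change from control to short-term muscle was 0.02 relative to the median gene (SE 0.14; limma, adjusted p = 0.064). Rpl5 and Rpl11, which bind 5S rRNA and, when free, the p53 regulator Mdm2, differed by 0.13 (limma, adjusted p = 0.23) and 0.02 (limma, adjusted p = 0.056). Rplp0, the stalk protein often used as a reference gene, differed by 0.09 (SE 0.15; limma, adjusted p = 0.16), with signals of 4654 to 6737 in controls and 4132 to 5953 in short-term muscle. Rpsa, also known as the laminin receptor, was called lower under 1 of 6 scalings with a change of -0.0037 (SE 0.14; limma, adjusted p = 0.041), and Rpl22, which binds RNA outside the ribosome too, under 2 of 6 with a change of -0.08 (SE 0.15; limma, adjusted p = 0.026).

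The 9 members under the signal limit were Rpl26l1, Rpl28, Rpl30, Rpl39, Rpl39l1, Rpl7l1, Rps13, Rps27l and Rps4y2, with mean signals from 19.4 to 401. For Rpl30 and Rps13 brighter probe sets exist but carry several symbols, so the dim ones need not measure the main transcript. The probe sets of Rpl28 and Rpl39 were also dim (mean signals 22.0 and 66.0). Whether they measure the main transcript was not tested, which also limits the pair of Rpl39 and Rpl39l1. Rps4y2, a copy of the small subunit gene Rps4, had signals of 23.7, 38.5, 43.9 and 65.5 in controls and 57.0 to 135 in short-term muscle with a median of 65.3. Its long-term signals were 25.2, 35.2, 47.5 and 54.1, all below every short-term array, while controls and short-term arrays overlapped. It rose by 1.25 in short-term muscle (SE 0.31; limma, adjusted p = 0.021) and fell by 1.33 from short-term to long-term muscle (SE 0.31; limma, adjusted p = 0.015), both under all 6 scalings. The rise did not pass without control replicate 4 (limma, adjusted p = 0.094), nor the fall without long-term replicate 2 (limma, adjusted p = 0.061). Transcripts of near-identical copies cannot be told apart by a probe set, and which copy this one measures was not tested.

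Rpl30 of the large subunit, named after its values were seen, rose by 1.12 (SE 0.29; limma, adjusted p = 0.034) under 5 of 6 scalings, with signals of 9.69 (the floor) to 22.9 in controls and 20.2 to 38.0 in short-term muscle. Rps27l, a paralog of Rps27 known as a p53 target in human cells, had signals of 72.3 to 127 in controls and 107 to 204 in short-term muscle, which overlap. Its change of 0.82 did not pass the test (SE 0.21; limma, adjusted p = 0.069), though it did under 4 of 6 scalings. Rps28, also singled out after its values were seen, differed by 0.34 (SE 0.18; limma, adjusted p = 1) and was called higher under 2 of 6 scalings.

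At 1 week 1 member was higher and 8 were lower than control by limma (background 6.17% and 28.8%), with a median of 0.03 relative to the median gene. At 2 weeks 1 was higher and 6 were lower (background 9.84% and 37.7%), with a median of 0.23. The 2-week split turned with the scaling, from 1 higher and 23 lower on the deposited scale (6.16% and 40.4% of all genes) to 9 higher and 0 lower with a common trimmed mean (20.1% and 16.1%). Under all 6 scalings Rpl3 was higher at 1 week (background 4.48%) and at 2 weeks (background 6.09%), and Rpl3l was lower at 1 week (background 9.11%), while at 2 weeks 0 members were lower under all 6 (background 14.4%). At 6 weeks the median was -0.10, and by limma 0 members passed the threshold in either direction (background 0%), with 0 at an unadjusted p under 0.05, where 485 of 11064 genes were. The 3- and 4-week muscles, of 1 rat each, had no test.

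Long-term muscle had 0 members past the threshold against control by limma in either direction (background 0%), and 0 members at an unadjusted p under 0.05, where 218 genes were. The median change of the members was -0.01 relative to the median gene, and 45 of 48 lay within 0.25 of it, against 76.5% of all genes. The share among genes of like signal was not counted. The arrays of both groups overlapped for every member (background without overlap 0.877% higher, and 83 of 11064 genes lower). The largest differences were those of the dim members Rpl39l1 (0.61, SE 0.53) and Rps13 (0.59, SE 0.45). Standard errors of the members ran from 0.13 to 0.53. Rpl39l1 and Rps13 did not pass the test although each difference exceeded its standard error. Differences above the standard error could therefore also go undetected.

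From short-term to long-term muscle 12 members were higher and 2 lower by limma (background 42.4% and 12.1%), with a median of -0.11 relative to the median gene. This median ran from -0.18, without the 22-week array, to -0.07, without long-term replicate 2, and it was 0.04 with no filter on low values. On the deposited scale 2 members were higher and 2 lower (25.1% and 10.9% of all genes), with a common 75th percentile 2 and 4 (24.5% and 18.3%) and with a common median of the tested genes 2 and 4 (26.2% and 17.4%). With a common trimmed mean they were 1 and 7 (17.1% and 23.0%), and after quantile normalization 2 and 17 (20.6% and 17.5%). Under all 6 scalings Rpl3l was higher (background 15.3%), and Rpl3 and Rps4y2 were lower (background 10.7%). The count of higher members was 4 without the 22-week array. For 6 higher members (background 29.8%) and 2 lower ones (background 5.96%) the arrays did not overlap. Among the former were Rpl26l1 (0.45, SE 0.23; limma, adjusted p = 0.0062; 4 of 6 scalings), with signals of 23.2 to 39.9 in short-term and 48.9 to 60.5 in long-term muscle, and Rpl24, Rpl12 and Rps6, which rose by 0.12, 0.09 and 0.02 and were called under 2, 1 and 1 of 6 scalings.

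**Figure D4:**
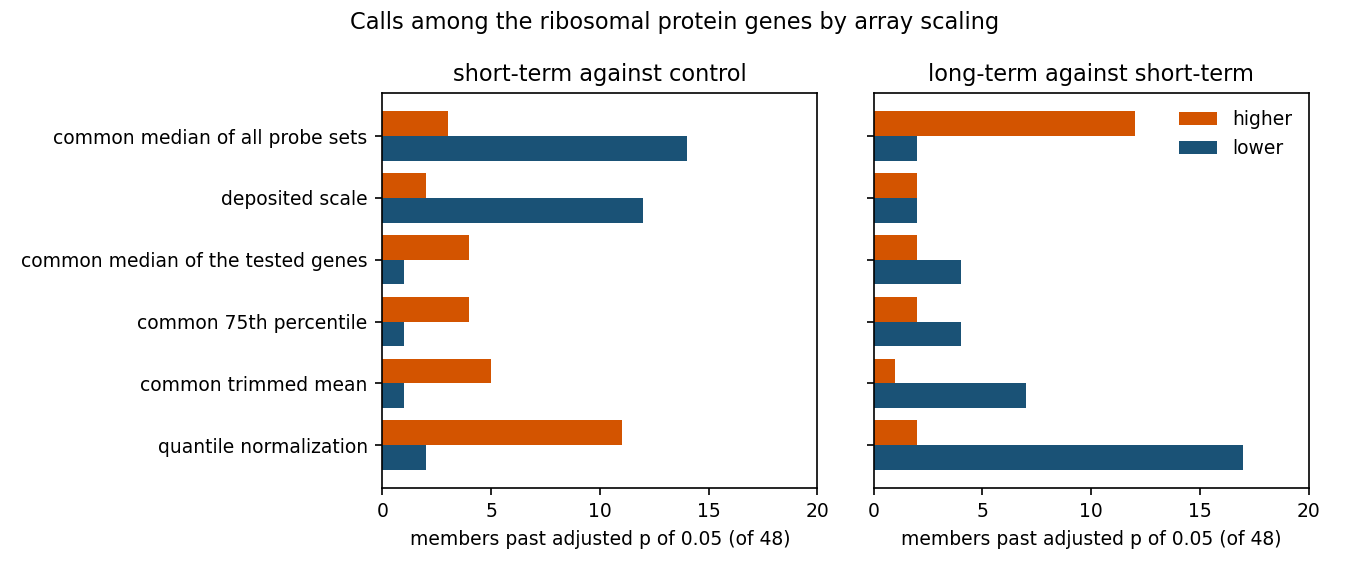
Number of the 48 members past an adjusted p of 0.05 (limma) as higher (orange) or lower (blue) under each of 6 array scalings, for short-term against control and long-term against short-term. The direction of most calls changes with the scaling: short-term muscle has 3 higher and 14 lower with a common median of all probe sets, and 11 higher and 2 lower after quantile normalization.

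The 22-week array had the highest signal of all 14 arrays for 32 of 48 members (66.7%) on the common median scale, where it was highest for 35.0% of all genes, and for 6 members (12.5%) on the deposited scale, where it was highest for 3.34%. On the common median scale the median member lay 0.40 above the controls there and the median gene 0.21, a difference of 0.19. On the deposited scale they lay at -0.01 and -0.20, with a difference of 0.18, and after quantile normalization the difference was 0.0049.

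Genes that make and use ribosomes were counted from lists chosen with earlier results of these data known. In short-term muscle 31 of 39 ribosome biogenesis genes were lower than control by limma and 0 higher (background 39.6% and 12.3%). Under all 6 scalings 12 of them were lower (background 16.7%), and the list's median change was -0.33 relative to the median gene. Mrto4, an assembly factor of the large subunit stalk, had group means of 266 in controls, 83.4 in short-term and 256 in long-term muscle and fell by 1.33 (SE 0.30; limma, adjusted p = 0.00033). Nop2, an rRNA methyltransferase, fell by 0.80 (limma, adjusted p = 0.00013) and Nmd3, the export adaptor of the large subunit, by 0.59 (limma, adjusted p = 5.7e-05). Of 16 genes of RNA polymerase I and its factors 10 were lower and 0 higher (background 39.6% and 12.3%), with a list median of -0.33. Under all 6 scalings 4 were lower (background 16.7%). These 4 were Polr1b, the second largest subunit (fell by 0.75), the initiation factor Rrn3 (fell by 0.62), Polr1d and Polr1c.

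Of 31 translation initiation genes 27 were lower and 0 higher by limma (background 39.6% and 12.3%), with a list median of -0.24. Under all 6 scalings 5 were lower (background 16.7%). Eif4b, a helper of the cap-binding complex, fell from a group mean of 1985 to 818, a change of -0.94 (SE 0.15; limma, adjusted p = 1.2e-05), and Eif4e, which binds the cap, changed by -0.70 (SE 0.15; limma, adjusted p = 4.1e-05). Of 22 genes listed for mTOR and S6 kinase signalling 15 were lower and 0 higher, 4 under all 6 scalings (median -0.35): Mtor itself (fell by 0.53), its partner Mlst8, the inhibitor of its pathway Tsc2 and the translation repressor Eif4ebp1 (fell by 0.99). That list also names Pdk1, the symbol of a pyruvate dehydrogenase kinase, and no count was made without it. Of 9 elongation genes 4 were lower, 0 under all 6 scalings, with a median of 0.02. Rack1, a scaffold on the small subunit, changed by -0.13 (limma, adjusted p = 0.0098; 2 of 6 scalings). In long-term muscle 0 genes of these lists differed from control by limma. The share of all genes lower in short-term muscle was 39.6%, and 16.7% under all 6 scalings. Under all 6 scalings the initiation list and the mTOR list lay near that share of all genes.

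Fibroblast and macrophage markers and the arrays themselves moved with the short-term group. The slow fibre markers were strong on all arrays, as the labelled muscle has them, and 0 of 8 were called in the same direction under all 6 scalings in short-term muscle. Of 6 fast fibre markers 2, Myh4 and Tnnt3, were higher and 1, Myh1, was lower under all 6 scalings, with a median change of 1.89 relative to the median gene in short-term muscle and of 1.15 in long-term muscle, where by limma 0 were called. Of 10 fibroblast markers 9 were higher in short-term muscle under all 6 scalings, with summed signals of 10336 to 17119 in controls, 31188 to 61529 in short-term and 4967 to 17642 in long-term muscle, and of 15 macrophage markers 12 were, with 2018 to 3757, 4976 to 10767 and 1891 to 3935. No marker of either list was at the floor on all arrays. In short-term muscle 1 of 5 endothelium markers was lower under all 6 scalings. Of 4 lymphocyte markers 1 was higher under all 6, of 4 adipocyte markers 1, and of 2 red blood cell markers 0. The median changes of these lists relative to the median gene were 0.09, 1.01, 1.24 and 0.67. The poly-A spike-ins read 108 ± 19.7 (SD, n = 4) in controls, 268 ± 110 (n = 6) in short-term and 133 ± 27.4 (n = 4) in long-term arrays, and the 75th percentile of an array's signals lay above its median by 2.32, 2.06 and 2.35 (log2, group means). The ratio of 3' to 5' control probe sets, a sign of RNA quality, averaged 2.08 in controls, 1.33 in short-term and 1.78 in long-term arrays for Gapdh, and 1.86, 2.62 and 2.33 for actin. The part of these in the changes of Rpl3, Rpl3l and the other members was not tested.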

How the data were processed

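Total RNA of 14 soleus muscles was labelled with biotin and hybridized to Affymetrix arrays, 1 array per muscle. The deposited values are probe set intensity signals that the authors computed with MAS5, per the submitters' processing notes; the scaling target and detection calls are not given in the sources used here. Array medians ran from 29.7 to 49.1.

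Signals were taken to log2, shifted to a common median and raised to a floor at the pooled 25th percentile (9.69). Of 14217 genes with a single symbol, read from the probe set of highest mean, the 11064 above the pooled 40th percentile (22.0) on at least 4 arrays were tested with limma 3.58.1 in R 4.3.3: 1 mean per group, or per time point, over all 14 arrays, an intensity trend, and Benjamini-Hochberg adjustment over all genes at 0.05. The procedure was tested on simulated data with independent noise and no shift of whole arrays, so that test does not bear on the scaling. Within-array differences of paralogs had exact permutation tests. Group means are geometric.

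The members, lists and alternatives were chosen with earlier results of these data known. Members named are those with paralogs or known separate roles, the 5 largest rises and falls past the threshold without overlap in each comparison, and those called under all 6 scalings. The alternatives were other scalings, no floor, no filter, other probe set rules, no trend, without the week 1 arrays, rat as a block, and each array left out. Rats 61 and 62 gave a control and a 6-week muscle, and the deviations of these arrays from their group means correlated at 0.41 and 0.21 across genes. Symbols come from the platform's annotation, and promoters were matched by gene ID for 41 members and by symbol for 2. For Rpl13a the accession listed with the probe set belongs to Hk3 in RefSeq.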

Additional observations from a re-analysis of the deposited data

Results flagged for a closer look

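The test of the difference between the changes from control in long-term and in short-term muscle is the comparison of long-term with short-term muscle (limma, adjusted over all genes), which called 14 members, and 3 of them under all 6 scalings. For these the difference was -1.06 (log2, relative to the median gene) for Rpl3, 0.53 for Rpl3l and -1.33 for Rps4y2. Rps4y2 is a dim probe set, and its difference did not pass without long-term replicate 2. No array stood apart from its group by Dixon's criterion in the 60 sets of values looked at, 20 named members in 3 groups. With 4 or 6 arrays per group this criterion has little power, so it does not show that no array is aberrant. The 22-week array was the highest of all 14 for 32 of 48 members on the common median scale.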

How the results depend on the processing

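Rpl3 and Rpl3l kept their direction and their calls in short-term muscle against control and in long-term against short-term muscle under every alternative run. Their difference within arrays was 1.52 to 1.76 for short-term minus control and -1.73 to -1.49 for long-term minus short-term muscle with single arrays left out, an alternative added after seeing the data. With rat as a replicate block (estimated correlation 0.11) the counts were 3 higher and 14 lower in short-term muscle against control, and the pairing changed no call of a named member. The counts of the other members depended on the scaling, which, apart from quantile normalization, shifts all genes of an array together. Short-term muscle against control had 3 higher and 14 lower, but 5 and 1 with a common trimmed mean, 11 and 2 after quantile normalization, 1 lower with a common 75th percentile or a common median of the tested genes, and 9 lower without the intensity trend. With single arrays left out it had 2 to 3 higher and 4 to 19 lower. Long-term against short-term muscle had 12 higher and 2 lower, but 2 higher with the deposited scale, 75th percentile, median of the tested genes or quantile normalization and 1 with the trimmed mean, and 4, 4, 7 and 17 lower with the 75th percentile, median of the tested genes, trimmed mean and quantile normalization. With single arrays left out it had 4 to 16 higher and 1 to 3 lower. At 1 week 2 members were higher after quantile normalization, and 1 was lower with it, the 75th percentile, the median of the tested genes or the trimmed mean. At 2 weeks 4, 3, 9 and 4 were higher with the 75th percentile, median of the tested genes, trimmed mean and quantile normalization, and 0, 0, 0 and 1 lower, against 23 lower on the deposited scale.

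The members' median relative change in short-term muscle stayed between 0.01 and 0.16 with single arrays left out, between 0.09 and 0.17 over the scalings, and was -0.05 without the filter, where the median gene is taken over dimmer genes too. The direction of the change before subtraction also turned for 7 (deposited scale or median of the tested genes) to 16 (trimmed mean) changes of named members that neither the common median scale nor the other scaling called. Where either called the change, the direction before subtraction turned with the trimmed mean and after quantile normalization. The changes of these genes relative to the median gene need not turn with it. With the trimmed mean they were, for long-term against short-term, -0.00012 for Rpl22, 0.0445 for Rpl4, 0.0073 for Rpl7 and 0.0118 for Rps6, and for short-term against control, -0.0036 for Rpl7, -0.0140 for Rpl7l1 and -0.0013 for Rpsa. After quantile normalization they were, for long-term against short-term, -0.16 for Rpl22, -0.17 for Rpl4, -0.18 for Rpl7, -0.28 for Rplp0, -0.0896 for Rps6 and -0.42 for Rpsa, and for short-term against control, 0.0832 for Rpl21, 0.15 for Rpl7, 0.11 for Rpl7l1 and 0.19 for Rpsa. The cause was not tested.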
